A study of Homo sapiens with 4 samples.

Results

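The 50 genes described here encode proteins that carry a cell from G2 through mitosis: mitotic cyclins and kinases, spindle checkpoint proteins, condensin subunits, kinesins, spindle proteins, cytokinesis proteins and the 2 transcription factors FOXM1 and MYBL2. They were picked by gene symbol, with no threshold on a measured value, and are 50 of the 34080 genes obtained by summing transcripts. These genes and the other lists below were chosen with earlier results of these data known, so the lists are not independent of the data. All 50 had enough reads to be tested, among 13569 genes tested. The cells were HK-2, an immortalised human renal proximal tubule line obtained by introducing papillomavirus oncogenes, in which a Tet-On 3G system drives HA-tagged PRCC-TFE3, the fusion transcription factor of a kidney cancer. Doxy(+) cultures received 0.2 microg/ml doxycycline for 24 h and Doxy(-) cultures none, with 2 libraries of polyadenylated RNA in each group. Both groups carry the same transgene system and, per the study's methods, were kept under blasticidin and puromycin. HK-2 cells without the transgene were not analysed here, so an effect of doxycycline and an effect of PRCC-TFE3 cannot be told apart. The labels do not say whether the libraries numbered 1 and 2 came from separate cultures or clones, and p-values therefore measure only the spread between these libraries, which may be technical.

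In a dividing cell, entry into mitosis is driven by CDK1 bound to cyclin A or cyclin B, condensin compacts the chromosomes, the spindle checkpoint holds back the anaphase-promoting complex (APC/C) until every kinetochore is attached, and kinesins and a contractile ring then divide the cell. Transcripts of these genes are low in resting and G1 cells and rise together late in the cycle. The rise depends on NF-Y, which binds CCAAT boxes, and on the MuvB complex, which binds the CHR element in their promoters and works with the repressors RBL1, RBL2 and E2F4 in resting cells (the DREAM complex) and with MYBL2 and FOXM1 in cycling cells. Because their RNA tracks the number of cells in G2 and mitosis, these genes are widely used as a proliferation signature. In a bulk culture, fewer cells in those phases and less of each RNA per cell cannot be told apart.

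The libraries held 14042545 to 16618401 estimated reads, of which 12654233 to 15012743 lay on matched genes. TFE3, which the transgene contains, had 66.9 and 69.0 CPM (reads scaled to library size by the TMM method) without doxycycline, against 367 and 322 CPM with it, in the direction that the labels give. The epithelial genes KRT8, KRT18, KRT19 and PAX8 were well expressed, and KRT7, CDH1, CDH6 and PAX2 of the same list are not described singly. Log2 fold changes of Doxy(+) over Doxy(-) in the tested markers of that list ran from -1.64 to 0.36. Of the 7 listed genes of differentiated proximal tubule, GGT1 stood at 69.1 CPM on average in Doxy(-) and SLC5A2 at 3.62 CPM, SLC34A1 at 1.2 CPM and CUBN at 0.637 CPM, while LRP2, AQP1 and ANPEP were at or near 0 in both groups. The 15 epithelial and proximal tubule markers summed to 2057 and 2052 CPM in Doxy(-) and to 1761 and 1776 CPM in Doxy(+), and 4 of the 10 tested were lower and 1 higher by the edgeR test used below (adjusted p under 0.05), which called 9.53% of all genes lower and 9.76% higher. The 12 markers of blood, endothelial, podocyte, distal tubule and muscle cells summed to 151 and 156 CPM in Doxy(-) and to 206 and 203 CPM in Doxy(+), and 3 of the 4 tested were higher and 0 lower by the same test. Nearly all of that was CD68, also a lysosomal protein, and without it the sums were 7.76 and 6.88 against 15.8 and 13.9 CPM, with CDH5, HBB and AQP2 at 0 in every library. The part of these shifts in the results below was not tested.

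First, the 50 genes were compared between the groups as a whole. In Doxy(+) cells 46 of the 50 fell and 0 rose, by edgeR's quasi-likelihood test at an adjusted p under 0.05, where 9.53% of all genes tested were called lower and 9.76% higher. The changes were small and alike: the median log2 fold change was -0.36, a fall by 22.1%, and the range ran from -0.62 in NUF2 to -0.12 in BUB3, while the median over all genes tested was 0.0006. None passed a log2 fold change of 1 in size, which 0.479% of all genes passed in the lower direction. In 49 of the 50 genes both Doxy(+) libraries lay below both Doxy(-) libraries in CPM, a pattern found in 30.0% of all genes tested (31.1% showed the reverse). The exception was ESPL1. All 50 fitted log2 fold changes were below 0, against 49.9% over all genes tested. The 50 genes together took 0.760% and 0.771% of the gene reads in the Doxy(-) libraries and 0.616% and 0.618% in the Doxy(+) libraries.

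**Figure D1:**
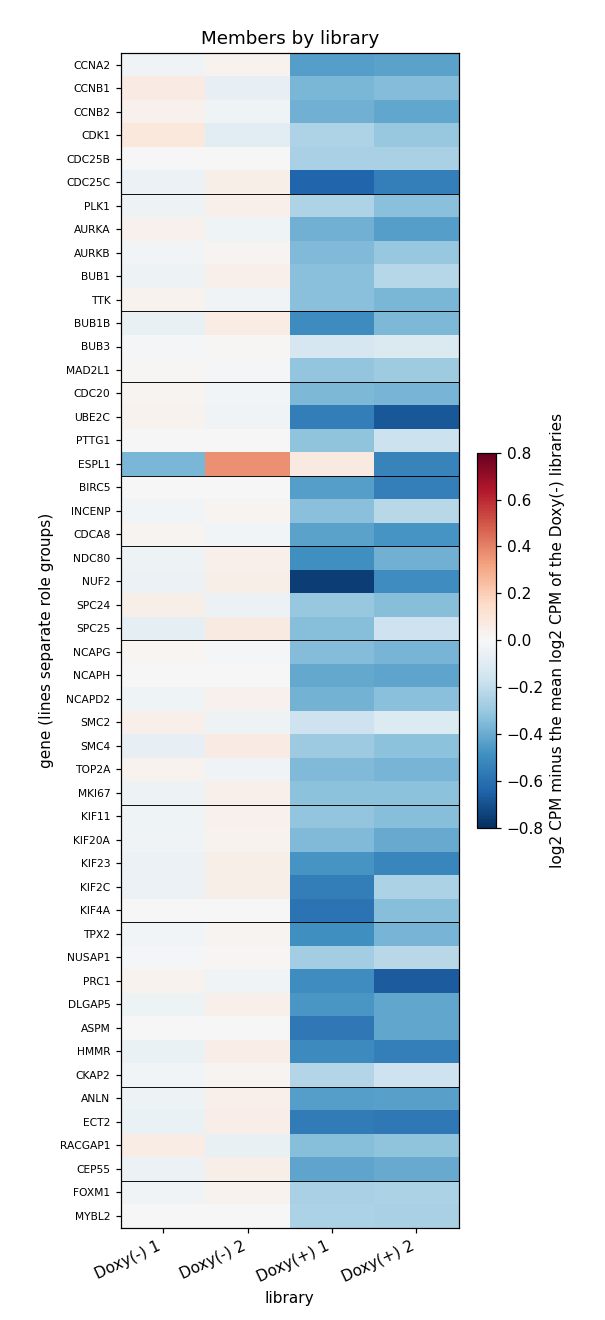
Each row is one of the 50 genes, in role groups separated by lines, and each column is one library; colour gives log2 CPM minus the mean log2 CPM of the Doxy(-) libraries. The Doxy(+) columns are blue for every gene except ESPL1, whose libraries overlap, and for the other genes the Doxy(-) columns are nearly white.

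The spread between replicates was much smaller than these differences. Over the 50 genes the median size of the log2 ratio was 0.07 within Doxy(-) and 0.05 within Doxy(+), against 0.36 to 0.38 for the 4 ratios of a Doxy(+) to a Doxy(-) library. The number of calls depended on the test. DESeq2 called 40 of the 50 lower (5.73% of all genes), whereas limma on log2(TPM + 1) called 15 (2.30% of all genes) and, when genes of low TPM were kept, 0 (0.335% of all genes), with all 50 log2 fold changes below 0 and 42 lower at an unadjusted p under 0.05 in each of the limma fits on that scale. Leaving out Doxy(+) 1 left 27 calls (4.05% of all genes) and leaving out Doxy(+) 2 left 34 (4.61% of all genes), with median log2 fold changes of -0.36 in both. With counts scaled by transcript length, 31 were called lower (4.29% of all genes).

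**Figure D2:**
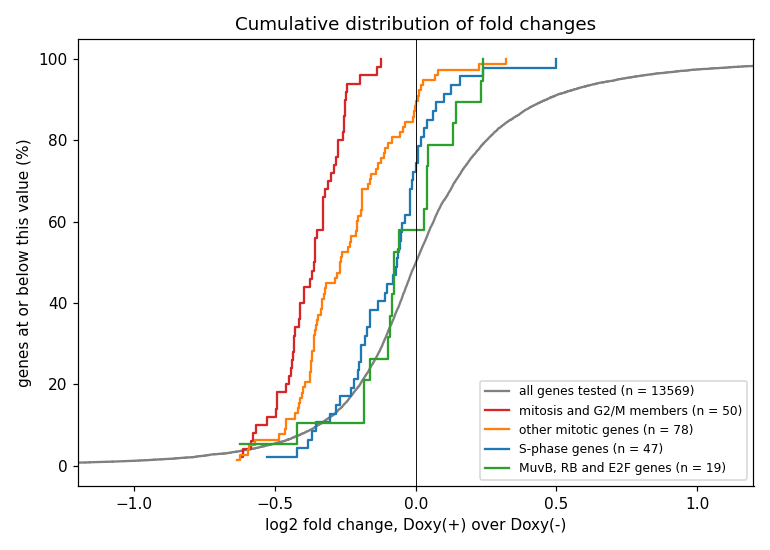
The horizontal axis is the log2 fold change of Doxy(+) over Doxy(-) and the vertical axis the percentage of genes at or below it, for the 50 mitosis and G2/M genes, 3 other lists and all genes tested. The curve of the 50 genes lies wholly left of 0, that of 78 other mitotic genes mostly so, and those of 47 S-phase and 19 MuvB, RB and E2F genes cross 0.

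To show what regulatory sequence these genes share, RefSeq promoter windows, from 250 bases before to 50 bases after the start, were searched on both strands for CCAAT and for the CHR core TTTGAA or TTCGAA. Of the 50 genes, 42 had at least 1 window, and AURKA, TTK, BUB3, UBE2C, BIRC5, TPX2, RACGAP1 and FOXM1 had none in the table used. A CHR core was present in 32 of the 42 genes (76.2%) and CCAAT in 32 (76.2%), and 25 (59.5%) held both. Among the 10430 tested genes with a window the shares were 15.3%, 43.3% and 6.43%, and over all 35116 windows they were 16.4%, 34.6% and 6.38%. The E-box CACGTG, a sequence that TFE3 and its relatives bind, was in 4 of the 42 (ANLN, CCNB1, MYBL2 and PLK1), or 9.52%, against 12.7% of tested genes, and the related CATGTG was in 0 of the 42, against 9.89%. A match is a description of the sequence only. TTCGAA and CACGTG read the same on both strands, and none of these motifs contains another. CCAAT matches gathered between 100 and 51 bases before the start (38 of 77 matches), and CHR cores in the last 50 bases before it (23 of 49). These matches were counted over all 54 windows of the 42 genes. Because 8 genes had several windows, an element lying in overlapping windows was counted more than once.

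The 250 bases before the start are shown for the 4 called genes with a CHR core match and the smallest p. They are also shown for the 2 such genes without a match. Only the exact cores TTTGAA and TTCGAA were searched, so a gene without a match may still hold a variant of the element. Each is given 5′ to 3′ on the strand of the gene, from RefSeq on GRCh38.p14, with CCAAT, CHR cores and CACGTG in capitals on either strand, so that ATTGG and TTCAAA mark the reverse strand.
ECT2, chr3:172750476-172750725, plus strand: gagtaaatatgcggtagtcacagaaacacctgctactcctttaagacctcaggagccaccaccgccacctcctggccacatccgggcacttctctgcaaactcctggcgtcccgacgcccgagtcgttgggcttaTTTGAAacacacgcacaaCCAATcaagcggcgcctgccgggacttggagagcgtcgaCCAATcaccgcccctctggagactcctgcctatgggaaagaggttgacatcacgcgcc
ANLN, chr7:36389612-36389861, plus strand: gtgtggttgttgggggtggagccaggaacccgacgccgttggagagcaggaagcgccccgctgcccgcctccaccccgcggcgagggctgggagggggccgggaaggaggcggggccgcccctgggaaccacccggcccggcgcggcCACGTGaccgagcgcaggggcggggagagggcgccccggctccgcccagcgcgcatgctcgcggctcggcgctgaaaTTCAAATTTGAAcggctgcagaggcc
TOP2A, chr17:40417897-40418146, minus strand: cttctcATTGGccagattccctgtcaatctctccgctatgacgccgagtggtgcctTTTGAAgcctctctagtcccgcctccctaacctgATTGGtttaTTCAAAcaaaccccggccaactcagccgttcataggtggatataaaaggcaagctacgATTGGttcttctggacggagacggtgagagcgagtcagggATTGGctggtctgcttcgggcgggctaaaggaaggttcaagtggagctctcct
CDC20, chr1:43358731-43358980, plus strand: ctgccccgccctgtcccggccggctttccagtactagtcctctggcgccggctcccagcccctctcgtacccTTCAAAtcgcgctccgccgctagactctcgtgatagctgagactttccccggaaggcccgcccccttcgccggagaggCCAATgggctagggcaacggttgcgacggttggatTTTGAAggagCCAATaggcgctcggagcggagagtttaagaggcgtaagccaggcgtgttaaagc
CCNA2, chr4:121823884-121824133, minus strand: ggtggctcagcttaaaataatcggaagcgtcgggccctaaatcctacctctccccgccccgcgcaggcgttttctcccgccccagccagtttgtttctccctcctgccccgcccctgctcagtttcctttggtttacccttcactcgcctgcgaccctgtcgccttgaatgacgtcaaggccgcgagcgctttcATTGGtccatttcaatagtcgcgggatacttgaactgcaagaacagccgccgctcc
MYBL2, chr20:43666864-43667113, plus strand: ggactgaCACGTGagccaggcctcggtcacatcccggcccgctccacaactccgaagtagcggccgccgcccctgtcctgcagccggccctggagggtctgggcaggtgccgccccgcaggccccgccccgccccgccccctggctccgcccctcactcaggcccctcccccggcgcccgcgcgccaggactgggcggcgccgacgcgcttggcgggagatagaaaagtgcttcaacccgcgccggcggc
In ECT2, counting from the start, a CHR core stands at -115 and CCAAT at -97 and -58. A further CCAAT at -2 runs across the start, so it is not marked in the printed stretch, and a further CHR core lies past the start. ANLN has no CCAAT but 2 abutting CHR cores at -26 and -20 and the E-box at -103. TOP2A holds 4 CCAAT boxes on the reverse strand, and CDC20 pairs a CHR core at -65 with CCAAT at -55. CCNA2 has 1 CCAAT box at -56, and of the motifs in capitals MYBL2 holds only the E-box, at -243. The genes with a CHR core had a median log2 fold change of -0.36 (29 of 32 called). The 10 with a window but no CHR core had one of -0.34 (9 of 10 called), and the 8 without a window one of -0.38 (8 of 8 called). Over all genes tested 9.53% were called lower, and whether a CHR core goes with the calls was not tested.

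**Figure D3:**
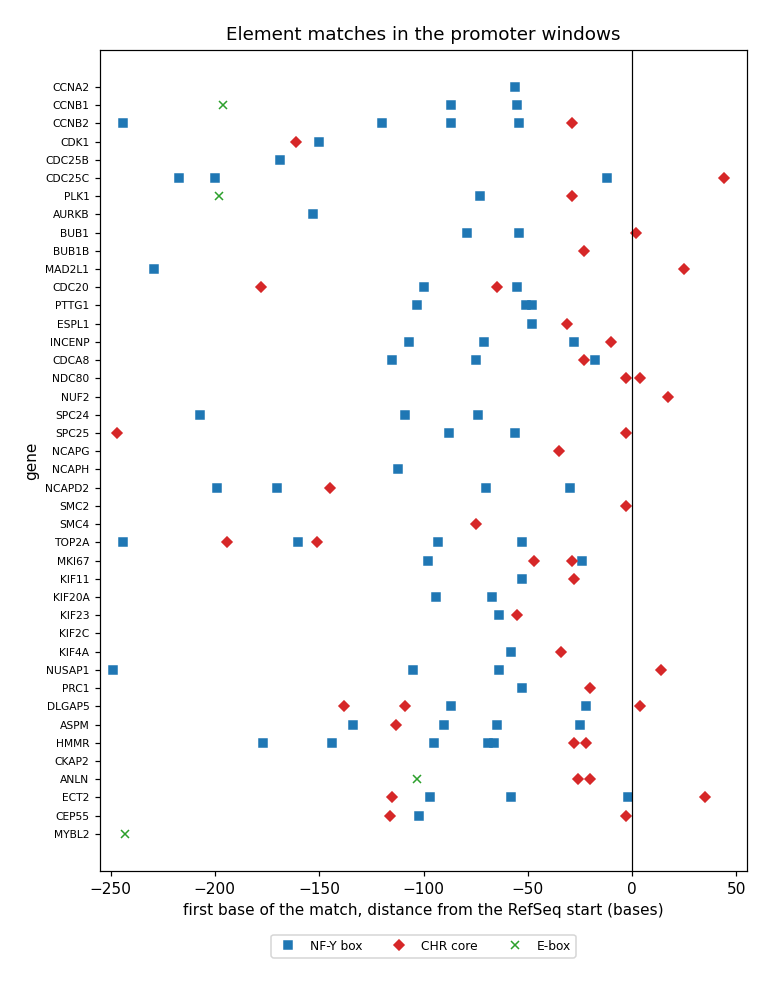
Rows are the 42 genes with a RefSeq promoter window (the first listed where there are several), and the horizontal axis is the distance in bases of each match from the start; squares are CCAAT (NF-Y) boxes, diamonds CHR cores and crosses the E-box. Squares gather between 100 and 51 bases before the start and diamonds just before it.

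Next, the genes were followed by role, beginning with the switch into mitosis. Positions are on hg38, and values are CPM in libraries 1 and 2 in that order. The number in parentheses is the log2 fold change of Doxy(+) over Doxy(-). Where groups are said not to overlap, both Doxy(+) libraries lay below both Doxy(-) libraries, as in 30.0% of all genes tested. All 6 of the cyclins, CDK1 and CDC25 phosphatases fell. CCNA2, cyclin A2 (ENSG00000145386.11, chromosome 4, 121816444 to 121823883), which acts from S phase into early mitosis, was measured at 109 and 113 CPM in Doxy(-) and 82.0 and 82.7 CPM in Doxy(+), a log2 fold change of -0.43 (SE 0.0465, adjusted p 0.00229 in edgeR). CCNB1, the main partner of CDK1 at mitotic entry, went from 161 and 147 to 119.6 and 121 CPM (-0.36), and its relative CCNB2 from 59.0 and 56.2 to 44.2 and 43.3 CPM (-0.40). In each of the 3 cyclin genes the lower Doxy(-) library was well above the higher Doxy(+) library. CDK1, the kinase itself, changed less, from 165 and 147 to 131 and 126 CPM (-0.28, adjusted p 0.0313 in edgeR), with Doxy(-) 2 nearer to the Doxy(+) libraries than Doxy(-) 1. The phosphatases that release CDK1 from inhibition were CDC25B, at 155 and 155 against 129 and 129 CPM (-0.26), and CDC25C, at 13.0 and 13.9 against 8.66 and 9.21 CPM (-0.59). TPM is the authors' level scaled for transcript length and depth. CDC25C had the lowest level of the 50 on this scale, with means of 10.5 TPM in Doxy(-) and 8.25 TPM in Doxy(+). It rests on 112 to 204 reads a library, and its call (adjusted p 0.0194 in edgeR) held in 8 of the 16 alternative fits. In TPM the groups of CDK1 overlapped, at 157 and 123 in Doxy(-) and 126 and 122 in Doxy(+). The call of CDK1 held in 9 of the 16 alternative fits.

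The 5 mitotic kinases all fell, by log2 values between -0.41 and -0.28. AURKA, the centrosomal Aurora kinase (ENSG00000087586.18, chromosome 20, 56369389 to 56392337), fell most, from 152 and 145 CPM in Doxy(-) to 114 and 109.5 CPM in Doxy(+) (log2 fold change -0.41, SE 0.0458, adjusted p 0.00259 in edgeR). AURKB, the catalytic subunit of the chromosomal passenger complex, stood at 88.8 and 91.2 against 70.4 and 72.9 CPM (-0.33), and PLK1, the polo-like kinase needed for centrosome maturation and mitotic exit, at 82.5 and 87.2 against 71.5 and 67.2 CPM (-0.29). In these 3 kinases the libraries of a group lay close together and the groups did not overlap. The checkpoint kinases were BUB1, with 122 and 130.0 CPM in Doxy(-) and 100.0 and 108 CPM in Doxy(+) (-0.28), and TTK, also called MPS1, with 64.6 and 62.1 against 50.2 and 49.2 CPM (-0.35). Neither overlapped between groups, a pattern found in 30.0% of all genes tested.

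Of the other spindle checkpoint genes, all 3 fell, BUB3 only just past the limit. BUB1B, which encodes the BUBR1 inhibitor of the APC/C, had 75.3 and 82.1 CPM in Doxy(-) and 55.4 and 61.4 CPM in Doxy(+) (-0.43, adjusted p 0.0113 in edgeR). MAD2L1, which encodes the MAD2 protein that sequesters CDC20, had 89.2 and 87.9 against 71.2 and 72.6 CPM (-0.30, adjusted p 0.00868 in edgeR). BUB3, a WD-repeat adaptor that cells use outside mitosis too, had the highest mean TPM of the 50 over the 4 libraries and changed least, from 241 and 243 to 221 and 224 CPM (-0.12, SE 0.0331, adjusted p 0.0489 in edgeR). Its call held in 5 of the 16 alternative fits, where the edgeR, DESeq2 or limma adjusted p reached 0.399.

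Among the genes of the APC/C and of sister separation, UBE2C and CDC20 fell and PTTG1 and ESPL1 did not pass. UBE2C, the ubiquitin-conjugating enzyme that works with the APC/C (ENSG00000175063.17, chromosome 20, 45812576 to 45816957), was the second largest change of the 50, from 136 and 131 to 90.9 and 83.6 CPM (log2 fold change -0.61, SE 0.0559, adjusted p 0.00125 in edgeR). CDC20, the activator of the APC/C whose promoter is printed above, went from 206 and 199 to 158 and 156 CPM (-0.37, SE 0.0372, adjusted p 0.00182 in edgeR). Both genes were closely alike within each group. PTTG1, securin, stood at 61.7 and 61.5 CPM in Doxy(-) and 49.2 and 54.7 CPM in Doxy(+), without overlap, and its log2 fold change of -0.24 had an edgeR adjusted p of 0.0524. ESPL1, separase, the protease that cuts cohesin, was the one gene whose groups overlapped in CPM. It had 52.8 and 88.1 CPM in Doxy(-) and 71.8 and 47.1 CPM in Doxy(+) (-0.25, SE 0.276, adjusted p 0.58 in edgeR). Without Doxy(-) 2 its log2 fold change was 0.17, and without Doxy(+) 2 it was 0.02. Its full-length coding transcript ESPL1-201 was given 339 and 734 reads in Doxy(-) and 767 and 399 reads in Doxy(+).

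The 3 partners of AURKB in the chromosomal passenger complex fell. BIRC5, survivin, was measured at 117 and 118 CPM without doxycycline and 86.5 and 80.5 CPM with it (-0.49, SE 0.0519, adjusted p 0.00212 in edgeR). CDCA8, borealin, was at 93.1 and 90.4 against 68.3 and 66.0 CPM (-0.45), and INCENP, the scaffold that activates AURKB, at 54.8 and 56.3 against 44.1 and 47.7 CPM (-0.28, adjusted p 0.0296 in edgeR). The call of INCENP held in 7 of the 16 alternative fits. Per transcript length the 4 subunits were not equal, with AURKB at 130.3, BIRC5 at 78.4, CDCA8 at 57.1 and INCENP at 36.1 TPM in Doxy(-).

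The NDC80 complex is the part of the kinetochore that grips microtubules, and 3 of its 4 genes fell. NUF2 (ENSG00000143228.13, chromosome 1, 163266576 to 163355764) had the largest change of the 50 genes, from 53.1 and 56.8 to 32.5 and 39.0 CPM (log2 fold change -0.62, SE 0.0941, adjusted p 0.0073 in edgeR), with Doxy(+) 1 lower than Doxy(+) 2. Its partner NDC80 had 38.0 and 40.3 CPM in Doxy(-) and 27.8 and 30.0 CPM in Doxy(+) (-0.44). SPC24 had 24.5 and 23.0 against 19.2 and 18.7 CPM (-0.32, adjusted p 0.0498 in edgeR), just inside the limit and called in 3 of the 16 alternative fits. SPC25 had 23.5 and 26.0 CPM in Doxy(-) and 19.5 and 22.1 CPM in Doxy(+), and its log2 fold change of -0.25 (SE 0.102) did not pass, with an edgeR adjusted p of 0.148. Per length, NDC80, SPC24 and SPC25 lay close together at 30.5, 30.3 and 28.2 TPM in Doxy(-), and NUF2 stood above them at 47.6 TPM.

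Of the chromosome genes, the condensin subunits NCAPG, NCAPH, NCAPD2 and SMC4 fell with TOP2A and MKI67, and SMC2 did not pass. TOP2A, the topoisomerase that untangles sister chromatids (ENSG00000131747.15, chromosome 17, 40388525 to 40417896), was among the most precisely measured, with 645 and 623 CPM in Doxy(-) and 496 and 490.3 CPM in Doxy(+) (log2 fold change -0.36, SE 0.0313, adjusted p 0.00104 in edgeR). MKI67, the Ki-67 antigen that coats mitotic chromosomes and is scored in pathology as a proliferation marker, had 679 and 716 against 556 and 555 CPM (-0.33, SE 0.0347, adjusted p 0.00215 in edgeR). Within a group the libraries of both genes differed far less than the groups did. The 3 non-SMC subunits of condensin I were NCAPH, at 70.3 and 69.8 against 52.8 and 52.3 CPM (-0.41), NCAPG, at 126 and 124 against 98.1 and 96.7 CPM (-0.36), and NCAPD2, at 203 and 214 against 161 and 165 CPM (-0.36). The ATPase SMC4 went from 339.9 and 372 to 291 and 283 CPM (-0.31), while its partner SMC2 stood at 107 and 102 against 93.3 and 97.0 CPM (-0.14, SE 0.0509, adjusted p 0.12 in edgeR). For SMC2, the transcript with the most reads, SMC2-203, was higher in both Doxy(+) libraries, with 41.7 and 48.2 CPM in Doxy(-) and 50.2 and 63.5 CPM in Doxy(+). By level per length SMC4 was at 165 and SMC2 at 29.6 TPM in Doxy(-).

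All 5 kinesins, the motors of the spindle and midzone, fell, with log2 fold changes between -0.50 and -0.33. KIF23, a subunit of the centralspindlin complex (ENSG00000137807.16, chromosome 15, 69414246 to 69448427), had 80.9 and 86.1 CPM in Doxy(-) and 60.1 and 58.2 CPM in Doxy(+) (-0.50, SE 0.0569, adjusted p 0.00278 in edgeR). KIF20A, which delivers the passenger complex to the midzone, had 78.5 and 81.6 against 62.7 and 60.5 CPM (-0.38), and KIF11, the motor that pushes spindle poles apart, 153 and 159.8 against 125 and 124 CPM (-0.33). Each of these 3 was tight within groups. The chromosome-bound KIF4A had 94.8 and 94.6 against 63.0 and 74.7 CPM (-0.46), and KIF2C, which depolymerises microtubules at the centromere, 82.4 and 88.1 against 58.0 and 71.4 CPM (-0.40, adjusted p 0.0419 in edgeR). In both of these the Doxy(+) libraries differed from each other more than the Doxy(-) libraries did, Doxy(+) 1 being the lower.

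The 7 spindle proteins fell, and PRC1, HMMR and ASPM most. PRC1, which bundles antiparallel microtubules at the midzone (ENSG00000198901.14, chromosome 15, 90966040 to 90995629), went from 128 and 124 to 89.5 and 79.4 CPM (log2 fold change -0.58, SE 0.0659, adjusted p 0.00278 in edgeR). HMMR, a spindle assembly factor that is also a hyaluronan receptor, went from 57.2 and 61.6 to 41.7 and 40.7 CPM (-0.53), and ASPM, a spindle-pole protein whose loss causes microcephaly, from 222 and 221 to 149 and 166 CPM (-0.49). None of the 3 overlapped between groups, a pattern found in 30.0% of all genes tested. TPX2, the activator of AURKA on the spindle, was at 339 and 350.1 against 246 and 266 CPM (-0.43, adjusted p 0.00246 in edgeR), and DLGAP5, which stabilises kinetochore fibres, at 97.9 and 103 against 72.8 and 75.4 CPM (-0.44). Smaller falls were found for NUSAP1, a microtubule-bundling protein, at 145 and 146 against 120.0 and 125 CPM (-0.25), and for CKAP2, at 109 and 112 against 93.9 and 98.8 CPM (-0.20, adjusted p 0.0367 in edgeR). The call of CKAP2 held in 7 of the 16 alternative fits.

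The 4 cytokinesis genes fell, 2 of them with the smallest p of the 50. ECT2, an exchange factor needed to form the cleavage furrow (ENSG00000114346.14, chromosome 3, 172750682 to 172821474), was measured at 267 and 287 CPM in Doxy(-) and 188 and 186 CPM in Doxy(+), or 277 ± 14.5 against 187 ± 1.45 as means (SD, n = 2 in each group). This was a log2 difference of -0.57 (SE 0.0452, adjusted p 0.000786 in edgeR), a fall by 32.5%. ANLN, anillin, the scaffold of the contractile ring, went from 356 and 376 to 269.9 and 271 CPM (-0.44, SE 0.0378, adjusted p 0.00103 in edgeR). These are also the genes whose promoters open the set printed above. CEP55, which recruits the machinery of abscission, had 248 and 264 against 191 and 194 CPM (-0.41), and RACGAP1, the partner of KIF23 in centralspindlin, 137 and 127 against 104 and 106 CPM (-0.33). All 4 were without overlap between groups, a pattern found in 30.0% of all genes tested.

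Both transcription factors that work with MuvB fell by about the same amount. MYBL2, or B-MYB, was measured at 388 and 391 CPM in Doxy(-) and 326 and 326 CPM in Doxy(+), nearly identical within each group, with a log2 fold change of -0.26 (SE 0.0294, adjusted p 0.0028 in edgeR). FOXM1, the forkhead factor of G2, was measured at 126 and 131 against 108 and 108 CPM (-0.26, SE 0.0437, adjusted p 0.0113 in edgeR). With log2 values of -0.26 each, they changed less than the median of the 50 genes.

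**Figure D4:**
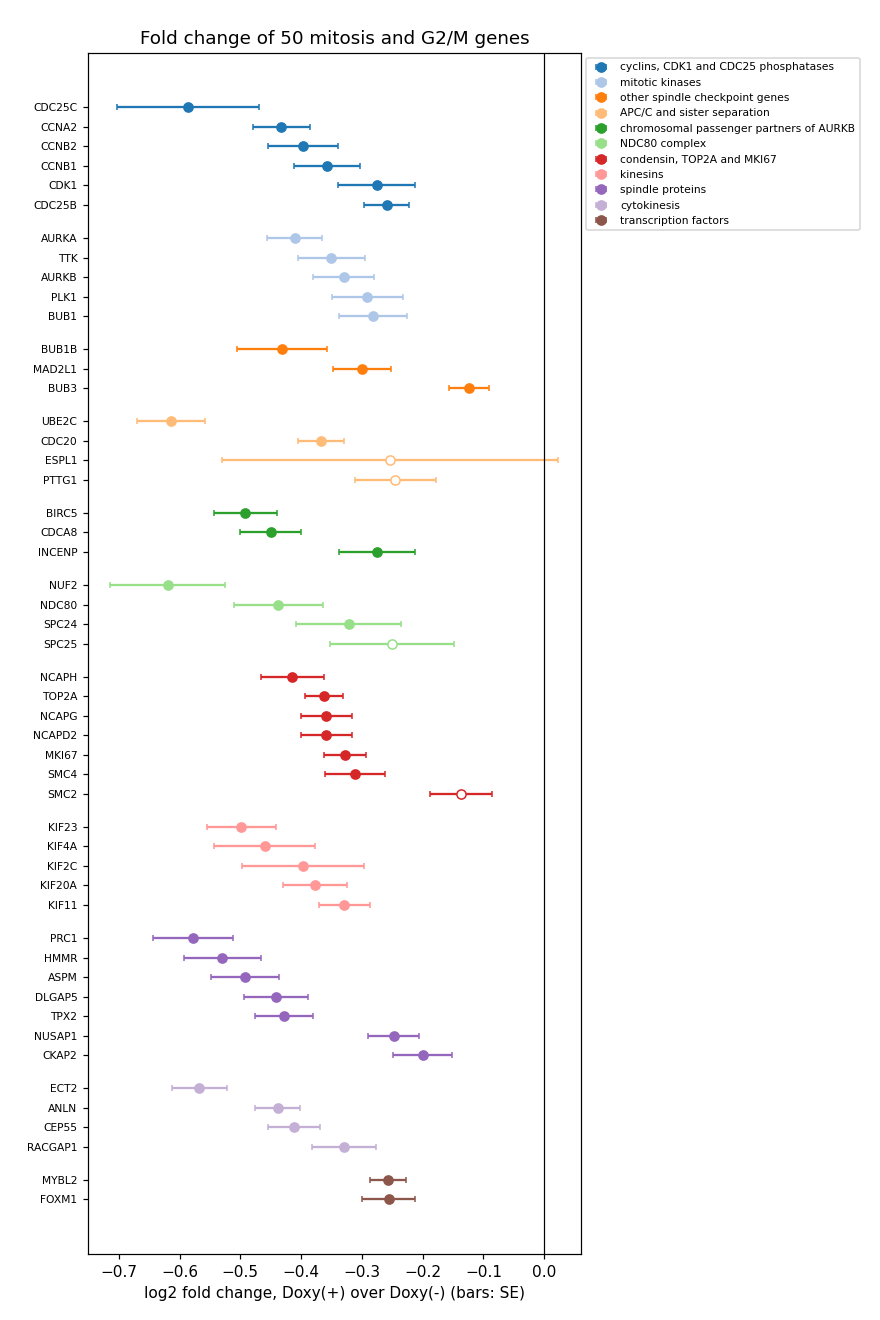
The horizontal axis is the log2 fold change of Doxy(+) over Doxy(-) with its SE as a bar, and each row is one of the 50 genes, coloured by role; filled points have an edgeR adjusted p under 0.05 and open points do not. The 4 open points are ESPL1, PTTG1, SMC2 and SPC25, and all 50 points lie left of 0.

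The levels per transcript length covered a wide range. Over the 4 libraries BUB3 was highest, with a mean of 250.3 TPM in Doxy(-) and 233 TPM in Doxy(+), next to UBE2C with 257 and 179 TPM, MYBL2 with 219 and 189 TPM, and CCNB1 with 202 and 160.4 TPM. BUB3 and UBE2C overlapped in Doxy(-), at 243 and 257 TPM and at 263 and 251 TPM, and separated in Doxy(+), at 229 and 237 TPM against 186 and 172 TPM. At the other end were SPC25, SPC24 and ESPL1, with Doxy(-) means of 28.2, 30.3 and 26.9 TPM, and CDC25C. The summed level of the 50 genes was 4414 and 4533 TPM in Doxy(-) and 3580 and 3578 TPM in Doxy(+).

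**Figure D5:**
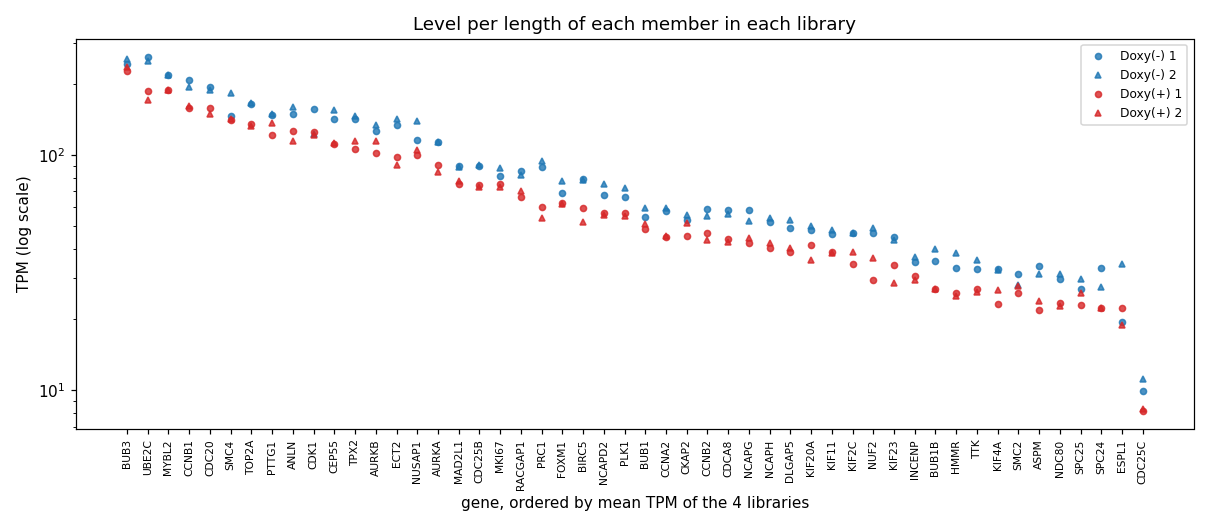
The vertical axis is the level in TPM on a log scale and the horizontal axis lists the 50 genes by mean TPM, with circles for the libraries numbered 1, triangles for those numbered 2, blue for Doxy(-) and red for Doxy(+). Levels run from BUB3 at the left down to CDC25C, and red lies below blue for nearly every gene.

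Single transcripts were examined to see whether the falls were those of the leading transcript of each gene. The transcript with the most reads did not overlap between groups and was lower in Doxy(+) in 44 of the 50 genes, as it was in 24.7% of all genes tested. The exceptions were AURKB, BUB1B, ESPL1, FOXM1 and RACGAP1, in which it overlapped, and SMC2, in which it was higher. In 15 genes, among them KIF11, CCNA2, CEP55, TOP2A and MYBL2, a single transcript held more than 90% of the reads. Exons of 13 of the 50 genes overlap another gene with reads, in 12 of them on the other strand, and all 13 were called. Of the 37 without such overlap 33 were called, where 9.53% of all genes tested were called lower. The library kit marks strand, but whether the counting used it is not stated, so the values of those 13 are less certain. UBE2C also shares sequence with the pseudogene UBE2CP5, which had 5.02 and 6.95 CPM without doxycycline against 6.23 and 5.20 CPM with it, and the quantifier may have divided reads between them.

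The wider programme was described with 78 other genes of mitosis and G2. Of these, 41 fell (52.6%) and 2 rose, against 9.53% and 9.76% of all genes tested, with a median log2 fold change of -0.27. The smallest p-values among the falls were those of HJURP, the chaperone that loads the centromeric histone, at 104 and 108 against 68.1 and 68.9 CPM (-0.63, adjusted p 0.000734 in edgeR), of HMGB2, a chromatin protein, at 267 and 276 against 216 and 209 CPM (-0.35, adjusted p 0.0021 in edgeR), and of the tubulin gene TUBB4B, at 636 and 644 against 549 and 534 CPM (-0.24, adjusted p 0.0037 in edgeR). DEPDC1B (0.32) and the histone variant gene H2AZ1 (0.23) rose, with edgeR adjusted p-values of 0.0198 and 0.0249. The falls numbered 29 with DESeq2 and 19 with length-scaled counts, where 5.73% and 4.29% of all genes fell. Falls were also fewer, and the 2 rises were not called, when either Doxy(+) library was left out.

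Of 47 genes of DNA replication and S phase, 8 fell (17.0%) and 2 rose, where 9.53% of all genes fell and 9.76% rose, with a median log2 fold change of -0.07. RRM2, a subunit of ribonucleotide reductase (-0.42), TYMS, thymidylate synthase (-0.37), and POLE, the leading-strand polymerase (-0.23), fell with the smallest p, with edgeR adjusted p-values of 0.00132, 0.00231 and 0.00607. GINS3 (45.3 and 41.8 CPM in Doxy(-), 60.7 and 62.0 CPM in Doxy(+), 0.50) and MCM2 (352 and 342 against 408 and 409.9 CPM, 0.24), both parts of the replicative helicase, rose, with edgeR adjusted p-values of 0.00387 and 0.00455. No test of the difference between this list and the 50 genes was made. Falls in this list numbered 4 with DESeq2 and 5 with length-scaled counts, where 5.73% and 4.29% of all genes fell. They were also fewer when either Doxy(+) library was left out.

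Of 19 genes of the MuvB, RB and E2F families, 1 fell (5.26%) and 1 rose, which is below the shares of 9.53% and 9.76% over all genes tested. MYBL1, a relative of MYBL2, fell from 74.2 and 82.5 to 50.6 and 51.0 CPM (-0.62, SE 0.0679, adjusted p 0.00238 in edgeR), and RBBP4, a histone-binding subunit of MuvB, rose from 197 and 197 to 224 and 240.4 CPM (0.24, SE 0.0441, adjusted p 0.0152 in edgeR). The call of RBBP4 was lost without Doxy(+) 2. The median log2 fold change of the 19 was -0.08.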

How the data were processed

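Polyadenylated RNA of 4 HK-2 libraries was sequenced. Per the methods and processing notes of the study, the authors trimmed reads with Trim Galore 0.6.6 and cutadapt 2.5, aligned them to hg38 with STAR 2.7.9a and computed TPM with RSEM, from libraries made with a stranded kit. The deposited files hold estimated counts and TPM (a level scaled for transcript length and depth) per Ensembl transcript. Their columns are those that the pseudoaligner kallisto writes, not those of RSEM, so which quantifier made them is uncertain. The Ensembl release and the strand setting of the counting are not given in the sources used here. The deposited estimated counts were summed per gene over GENCODE annotation and rounded to whole numbers. Identifiers without a match there carried 9.66% to 9.89% of the reads and were left out. The members and all lists were chosen with earlier results of these data known.

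Genes passing edgeR's low-count filter were tested with edgeR 4.0.16 (TMM scaling, quasi-likelihood, Benjamini-Hochberg adjusted p under 0.05) in R 4.3.3, after the code was tested on simulated data. The SE given with edgeR is the size of the log2 fold change divided by the square root of the test's F statistic. Alternatives used DESeq2 1.42.0, limma 3.58.1 on the deposited TPM on a log2 scale with pseudocounts of 1 and 0.1, other scalings and filters, and the omission of each library. All called members were named, with the member of highest TPM and largest change in each role group. In the other lists the 3 called genes of smallest p in each direction were named. RefSeq promoters came from GRCh38.p14. With 2 libraries a group, 2 residual degrees of freedom remained, and the common biological coefficient of variation was 6.53%. Reads carry no molecular identifiers, so depth speaks to counting error only.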

Additional observations from a re-analysis of the deposited data

Results flagged for a closer look

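An identifier that was left out of the gene sums, because it has no match in the annotation, copies a transcript of NCAPD2 and carried 3664 estimated reads over the 4 libraries. Its values were 77.8 and 73.9 CPM without doxycycline against 62.9 and 57.0 CPM with it. It was recognised by having the same length and estimated reads in every library as that transcript, so its direction was fixed by the match. With these reads added, the log2 fold change of NCAPD2 was -0.35 (SE 0.0333, edgeR adjusted p 0.00128). That fit repeats the pattern of a transcript already in the sum and adds no separate support.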

How the results depend on the processing

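The 50 log2 fold changes were below 0 in every fit, except that of ESPL1, which was 0.17 without Doxy(-) 2 and 0.02 without Doxy(+) 2, in a range of -0.59 to 0.17 with 1 library left out. The cause of the changes below was not tested. Members called lower numbered 46, and 15 with limma on log2 TPM at either pseudocount, 0 with limma without a filter, 0 with a log2 limit of 1, and 27 to 44 when 1 library was left out, the lowest without Doxy(+) 1. At an edgeR adjusted p under 0.01, 32 members were called lower, as were 554 of all genes tested. The median log2 fold change of the members was -0.31 with library totals alone, where the median of all genes was 0.05.

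Other mitotic genes called lower numbered 41, and 9 with limma at either pseudocount, 1 with limma without a filter, 19 with length-scaled counts, 24 at an adjusted p under 0.01, 0 with the log2 limit, and 19 to 43 with 1 library left out. Those called higher numbered 2, and 1 with DESeq2, 0 in the 3 limma fits, with length-scaled counts, at 0.01 and with the log2 limit, and 0 to 2 with 1 library left out. S-phase genes called lower numbered 8, and 5 with library totals alone, 4 with DESeq2, 2 with limma at either pseudocount, 0 without a filter, 5 with length-scaled counts, 4 at 0.01, 0 with the log2 limit, and 2 to 9 with 1 library left out. Those called higher numbered 2, and 1 with limma at either pseudocount and with length-scaled counts, and 0 with limma without a filter and with the log2 limit. MuvB, RB and E2F genes called lower numbered 1, and 0 with limma without a filter and with the log2 limit, and 1 to 2 with 1 library left out. Those called higher numbered 1, and 3 with library totals alone, 2 with limma at either pseudocount and with length-scaled counts, 0 with limma without a filter, at 0.01 and with the log2 limit, and 0 to 2 with 1 library left out.

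Over all genes 1293 were called lower, and 777 with DESeq2, 306 and 299 with limma at pseudocounts of 1 and 0.1, 72 without a filter, 583 with length-scaled counts, 554 at 0.01, 65 with the log2 limit, and 565 to 1308 with 1 library left out. Called higher were 1325, and in the same order 772, 598 and 590, 133, 677, 621, 203, and 647 to 1233. With library totals alone 936 were lower and 1701 higher.

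With the replicate number as a block 45 members were called lower. The labels do not say that the number marks a shared culture. Deviations of libraries with the same number had a correlation of -0.015. With 2 libraries a group, the value for the other number is the same with its sign reversed (0.015). The correlation therefore cannot show whether libraries with the same number share a culture. Depth limits CDC25C most, which had the fewest reads of the 50.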
